A study of Mus musculus with 6 samples.

Results

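Lysosomal genes were followed across 6 expression arrays of 3T3-L1 cells, a mouse fibroblast line that can be turned into adipocytes. The 52 genes chosen encode glycosidases, sulfatases, lipid hydrolases and lipid-binding proteins, peptidases other than cathepsins, membrane proteins, subunits of the vacuolar ATPase (V-ATPase) and autophagy proteins. They were chosen by symbol from 18194 genes with a probe set annotated to that gene alone, and each is read by the one of those probe sets with the highest mean over the 6 arrays. A named probe set was found for 51 of the 52. Of these, 50 were detected, meaning at or above the median of the whole table (6.55 on the log2 scale) on at least 1 array, and all 50 were at or above it on every array. Cln3, which encodes a lysosomal membrane protein lost in a juvenile neurodegenerative storage disease, lay between 5.49 and 6.03 and is not counted further, and Cd63 was not analysed here.

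Cells were treated for 5 days while they matured after induction with insulin, dexamethasone and a phosphodiesterase inhibitor. In the first experiment they received 0.1% ethanol as vehicle, 1 µM tenofovir (a nucleotide inhibitor of HIV reverse transcriptase) or 20 µM ritonavir (an HIV protease inhibitor). In the second experiment every group received 20 µM ritonavir, together with 0.1% DMSO as vehicle, 100 µM c9,t11-conjugated linoleic acid (CLA) or 100 µM t10,c12-CLA. The CLA isomers are linoleic acids that differ in the position and geometry of their double bonds. RNA of 4 replicate experiments was pooled onto 1 array per group, so there is no replicate spread and no test. A difference is the difference of log2 values between 2 arrays, and it is counted when it is at least 2-fold (at least 1 on the log2 scale). The ritonavir array and the ritonavir with DMSO array differ in vehicle and in experiment, which cannot be told apart.

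Lysosomes are acidic organelles in which hydrolases break down sugars, lipids and proteins delivered by endocytosis and autophagy. The V-ATPase pumps protons into the lumen, and membrane proteins shield the wall, move ions and export the products. Many of these genes carry a short E-box-like element near their start, to which transcription factors of the MiT/TFE family, such as TFEB and TFE3, are known to bind.

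Promoter sequences are shown for 5 members that were at least 2-fold higher with ritonavir and that hold the element, followed by 2 members without a match. Each runs from 250 bases before to 50 bases after a RefSeq start site of the gene (GRCm38.p6), 5′ to 3′ on the gene's strand. For Dpp7, Naglu and Atp6v0b this site lies inside the annotated gene, whose outer end for Dpp7 is base 25356389. Positions below count from the site, so bases before the start can lie within the gene there. Capitals mark TCACGTG read on either strand, with its extension TCACGTGA, and TCATGTGA. Gla lies at chrX:134600956-134601255 (minus strand), Gaa at chr11:119267713-119268012 (plus), Naglu at chr11:101069844-101070143 (plus), Dpp7 at chr2:25356283-25356582 (minus) and Atp6v0b at chr4:117887280-117887579 (minus). Cd68 lies at chr11:69666121-69666420 (minus) and Gm2a at chr11:55097735-55098034 (plus).
Gla: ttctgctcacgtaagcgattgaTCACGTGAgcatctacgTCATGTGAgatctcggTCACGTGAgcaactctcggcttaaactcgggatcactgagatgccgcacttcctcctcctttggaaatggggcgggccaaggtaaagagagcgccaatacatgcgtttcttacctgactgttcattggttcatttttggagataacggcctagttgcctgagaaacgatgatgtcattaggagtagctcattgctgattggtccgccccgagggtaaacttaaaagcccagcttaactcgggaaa
Gaa: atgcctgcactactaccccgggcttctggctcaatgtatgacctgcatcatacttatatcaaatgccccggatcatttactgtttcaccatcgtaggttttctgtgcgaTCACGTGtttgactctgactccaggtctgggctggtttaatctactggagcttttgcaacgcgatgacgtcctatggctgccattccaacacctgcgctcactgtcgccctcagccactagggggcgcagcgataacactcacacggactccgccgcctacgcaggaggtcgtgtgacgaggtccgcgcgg
Naglu: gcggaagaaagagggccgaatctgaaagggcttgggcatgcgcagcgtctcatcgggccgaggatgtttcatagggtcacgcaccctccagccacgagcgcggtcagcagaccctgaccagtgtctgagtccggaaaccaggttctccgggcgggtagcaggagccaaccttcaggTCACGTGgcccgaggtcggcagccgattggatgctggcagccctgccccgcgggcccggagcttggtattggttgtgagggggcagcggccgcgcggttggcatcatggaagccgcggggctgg
Dpp7: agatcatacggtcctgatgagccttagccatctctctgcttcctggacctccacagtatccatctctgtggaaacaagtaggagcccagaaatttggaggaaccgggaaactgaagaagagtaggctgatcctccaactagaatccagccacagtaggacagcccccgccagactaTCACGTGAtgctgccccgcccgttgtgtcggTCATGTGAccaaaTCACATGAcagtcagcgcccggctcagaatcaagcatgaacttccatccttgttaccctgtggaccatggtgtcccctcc
Atp6v0b: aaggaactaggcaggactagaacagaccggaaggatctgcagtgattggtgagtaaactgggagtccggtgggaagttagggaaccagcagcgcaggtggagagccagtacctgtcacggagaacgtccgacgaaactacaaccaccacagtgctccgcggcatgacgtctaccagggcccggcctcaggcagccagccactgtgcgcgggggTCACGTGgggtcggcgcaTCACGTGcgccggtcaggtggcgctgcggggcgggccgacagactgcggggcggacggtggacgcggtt
Cd68: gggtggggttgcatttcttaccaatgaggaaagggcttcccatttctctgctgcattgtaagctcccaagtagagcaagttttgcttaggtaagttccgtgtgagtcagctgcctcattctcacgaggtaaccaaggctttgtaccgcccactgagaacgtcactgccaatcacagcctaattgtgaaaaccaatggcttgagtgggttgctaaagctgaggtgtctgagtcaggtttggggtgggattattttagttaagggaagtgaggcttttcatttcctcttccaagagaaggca
Gm2a: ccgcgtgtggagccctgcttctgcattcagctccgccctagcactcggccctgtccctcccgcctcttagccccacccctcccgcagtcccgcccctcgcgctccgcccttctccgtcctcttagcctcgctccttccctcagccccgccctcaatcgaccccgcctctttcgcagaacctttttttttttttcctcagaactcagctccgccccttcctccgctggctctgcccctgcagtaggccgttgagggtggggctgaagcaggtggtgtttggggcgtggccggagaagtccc

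The Gla window holds TCACGTGA at 228 to 221 and again at 195 to 188 bases before the start, with TCATGTGA between them at 211 to 204. In Dpp7, TCACGTGA lies 74 to 67 bases before the start and is followed by 2 matches to TCATGTGA, at 43 to 36 and 30 to 23. Atp6v0b has TCACGTG at 37 to 31 and at 19 to 13 bases before the start, Naglu at 74 to 68 and Gaa at 141 to 135. Promoter windows were found for 45 of the 52 members. None was available for Asah1, Atp6v0a2, Atp6v1b2, Atp6v1c1, Atp6v1g1, Galns and Npc1, so whether they hold the element was not examined.

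Of the 45 members with a window, 14 (31.1%) hold TCACGTG on either strand, against 4.29% of all genes in the promoter table and 6.83% of the detected genes. The core CACGTG, which lies within TCACGTG, was present in the same number of members, against 8.09% of all genes and 11.5% of detected genes. The longer TCACGTGA was present in 6 members (13.3%), against 1.12% of all and 2.15% of detected genes. TCATGTGA was present in Dpp7, Gla, Ppt1 and Tpp1 (8.89% of members), against 1.15% of all and 0.879% of detected genes. By class, TCACGTG was present in 4 of 11 glycosidases, 2 of 4 sulfatases, 2 of 3 peptidases, 3 of 8 membrane proteins and 3 of 7 V-ATPase subunits, and in 0 of 7 lipid genes and 0 of 5 autophagy genes. A match describes these letters only, and a window without one says nothing about binding.

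With ritonavir, most lysosomal genes were higher than with ethanol, and the highest differences belonged to Cd68, Gla, Dpp7 and Npc1, each more than 3-fold. The members were chosen with earlier results of these data known, so their shares here and below describe this list and test nothing. Of the 50 detected members, 9 were at least 2-fold higher (18.0%), where 4.56% of the 12386 detected genes were. Only Gm2a was at least 2-fold lower (2.0%), against 6.39% of detected genes. The ritonavir value was above the ethanol value for 41 members (82.0%, against 50.2%), and 21 were at least 1.5-fold higher (42.0%, against 12.4%), while 2 were at least 1.5-fold lower, against 12.4% of detected genes. The median log2 difference was 0.54 over the members and 0.00 over all detected genes. The threshold passed close to Hexa, inside at 1.01, and Asah1, outside at 0.94.

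The array with ritonavir and DMSO, compared with the same ethanol array, had 6 members at least 2-fold higher (6 of 50, against 1.52% of detected genes) and 0 at least 2-fold lower (against 2.99%). These were Dpp7, Atp6v0b, Cd68, Gla, Npc1 and Neu1. In that comparison 22 members were at least 1.5-fold higher (44.0%, against 6.45%). The median difference of the members was 0.45, and that of all detected genes was 0.02. For 36 of the 50 members, all 4 arrays with ritonavir lay above both arrays without it (72.0%, against 28.6% of detected genes). Gm2a and Ppt2 were below on all 4 (22.6% of detected genes were), and the other 12 members overlapped. The comparisons of ritonavir and of ritonavir with DMSO share the ethanol array, so they are given side by side and not as independent results. The ritonavir with DMSO array differs from the ethanol array in drug, vehicle and experiment, which cannot be told apart. This holds for every difference given below with DMSO added. Both arrays without ritonavir are from the first experiment, and every array of the second received ritonavir, so the counts over all 4 arrays also mix drug and experiment.

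**Figure D1:**
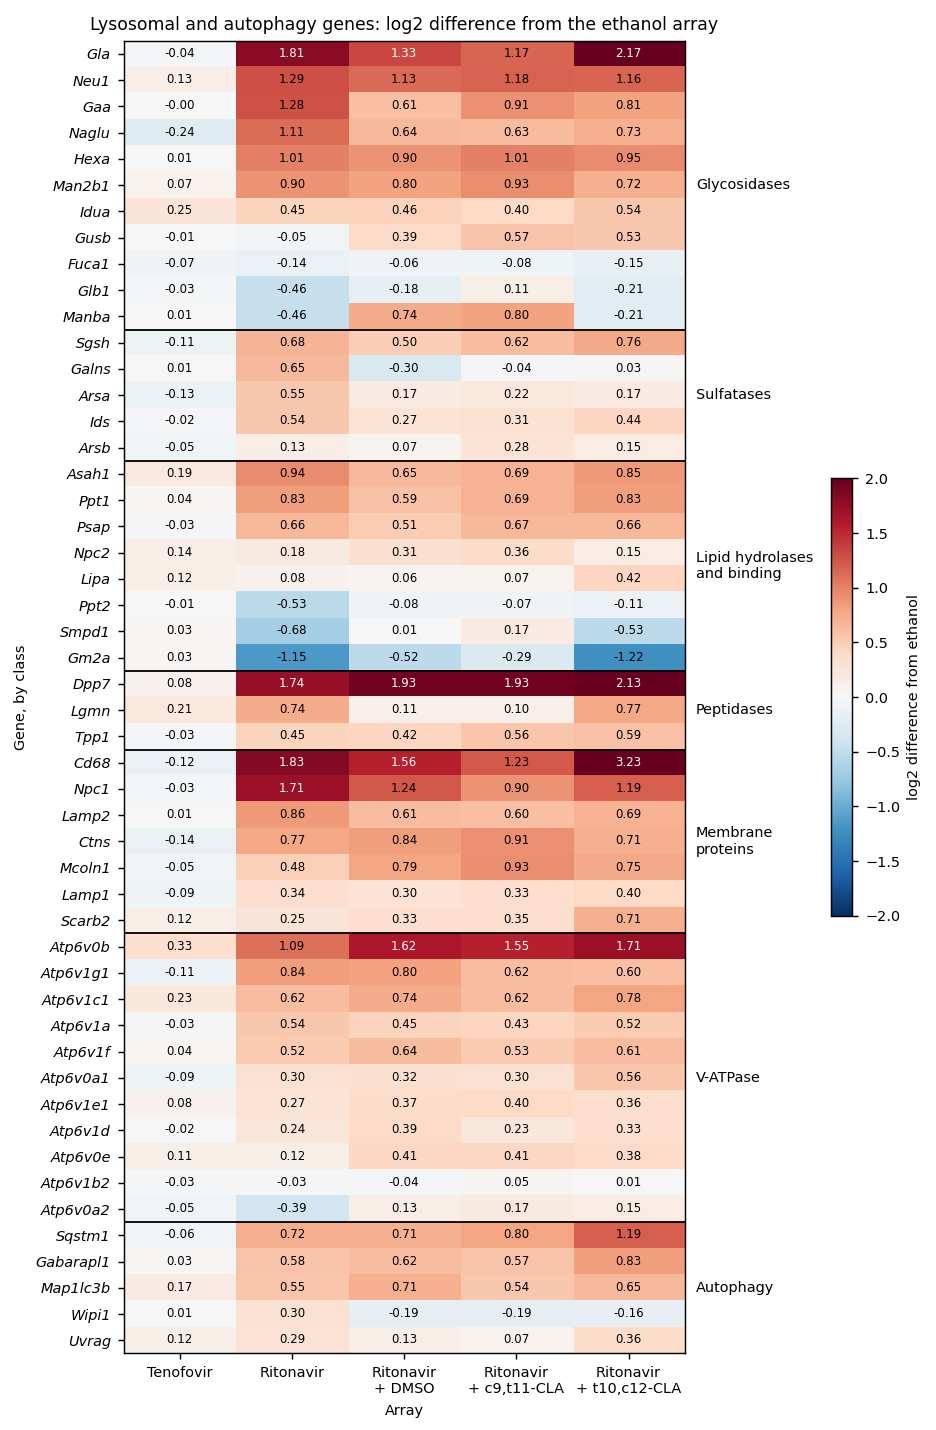
Log2 difference of each detected member from the ethanol array (colour) on the other 5 arrays (columns), with genes in rows grouped by class (the number in each cell is the difference, and colours saturate at a size of 2). The tenofovir column stays near 0, and the ritonavir columns are mostly above 0, with Gm2a as the member below 0 by the most on the ritonavir array (-1.15).

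Among the glycosidases, which remove sugars from glycoproteins, glycolipids and glycosaminoglycans, 5 of 11 were at least 2-fold higher with ritonavir and 2 of 11 with ritonavir and DMSO. Over all detected genes these shares were 4.56% and 1.52%. The class medians were 0.90 and 0.64, and 0.90 was the highest class median for ritonavir. Over only those probe sets named without an a, s or x suffix, it was 0.45 and the membrane proteins had the highest, 1.24. Gla encodes alpha-galactosidase A, which cleaves globotriaosylceramide and is deficient in Fabry disease. Its log2 values were 9.18 with ethanol, 9.15 with tenofovir, 10.995 with ritonavir, 10.52 with ritonavir and DMSO, 10.35 with c9,t11-CLA and 11.36 with t10,c12-CLA. All 4 ritonavir arrays were above both others, and the difference from ethanol was 1.81 (3.51-fold) with ritonavir and 1.33 with DMSO added. Neu1, the lysosomal sialidase, read 9.07, 9.20, 10.36, 10.21, 10.26 and 10.23 on the arrays in that order. It separated the same way, with differences of 1.29 and 1.13.

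Gaa, the acid alpha-glucosidase that degrades glycogen and is deficient in Pompe disease, read 10.59 with ethanol, 10.59 with tenofovir, 11.87 with ritonavir, 11.20 with ritonavir and DMSO, 11.50 with c9,t11-CLA and 11.40 with t10,c12-CLA. It was 1.28 higher with ritonavir and 0.61 higher with ritonavir and DMSO, so it passed 2-fold on the first array only. Naglu, which removes N-acetylglucosamine from heparan sulfate, read 10.27, 10.03, 11.38, 10.91, 10.90 and 11.002 in the same order, with differences of 1.11 and 0.64. Hexa, the alpha subunit of beta-hexosaminidase, whose loss causes Tay-Sachs disease, read 12.07, 12.08, 13.08, 12.97, 13.08 and 13.02, with differences of 1.01 and 0.90. For all 3 genes every ritonavir array was above both arrays without it.

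Manba, the beta-mannosidase that completes the degradation of N-glycans, had the lowest difference in its class. Its values were 7.90 with ethanol, 7.91 with tenofovir, 7.44 with ritonavir, 8.64 with ritonavir and DMSO, 8.70 with c9,t11-CLA and 7.69 with t10,c12-CLA. The ritonavir and t10,c12-CLA arrays were below the ethanol and tenofovir arrays, and the DMSO and c9,t11-CLA arrays were above them. Manba was the one member at least 2-fold apart between ritonavir with DMSO and ritonavir (1.205, or 2.31-fold), where 2.83% of detected genes passed 2-fold upward and 2.07% downward. At 1.5-fold, 3 members were higher and 3 lower in that comparison, against 8.43% and 6.18%. Man2b1, an alpha-mannosidase, differed by 0.90 with ritonavir, Idua by 0.45, Gusb by -0.05, Fuca1 by -0.14 and Glb1, the acid beta-galactosidase, by -0.46.

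The sulfatases, which remove sulfate from glycosaminoglycans and sulfatide, had a median of 0.55 with ritonavir and 0.17 with DMSO added. In either comparison 0 of 5 passed 2-fold, where 4.56% and 1.52% of detected genes did so upward and 6.39% and 2.99% downward. Sgsh, a heparan sulfatase, was the highest, with values of 7.91 with ethanol, 7.80 with tenofovir, 8.60 with ritonavir, 8.41 with ritonavir and DMSO, 8.53 with c9,t11-CLA and 8.67 with t10,c12-CLA. Arsb, which acts on dermatan and chondroitin sulfate, was the lowest at 10.54, 10.49, 10.67, 10.61, 10.82 and 10.69. Both genes were above the other arrays on all 4 ritonavir arrays, though Arsb differed from ethanol by only 0.13. Galns, Arsa and Ids differed by 0.65, 0.55 and 0.54 with ritonavir.

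Among the lipid hydrolases and lipid-binding proteins, 3 of 8 were at least 1.5-fold higher with ritonavir and 2 of 8 at least 1.5-fold lower. Of the lower ones 1, Gm2a, was also at least 2-fold lower. Of detected genes, 12.4% were at least 1.5-fold higher, 12.4% at least 1.5-fold lower and 6.39% at least 2-fold lower. The class median was 0.13 with ritonavir and 0.19 with DMSO added. Over only those probe sets named without an a, s or x suffix, the ritonavir median was -0.14. Asah1, the acid ceramidase, was the highest, at 11.81 with ethanol, 11.999 with tenofovir, 12.75 with ritonavir, 12.47 with ritonavir and DMSO, 12.50 with c9,t11-CLA and 12.66 with t10,c12-CLA. Its differences were 0.94 and 0.65. Ppt1, which removes fatty acids from proteins, differed by 0.83 and 0.59, and Psap, the precursor of the saposins that present sphingolipids to their hydrolases, by 0.66 and 0.51. Lipa, the acid lipase that hydrolyses cholesteryl esters and triglycerides, differed by 0.08 and 0.06, and Npc2, the luminal cholesterol carrier, by 0.18 and 0.31.

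Gm2a encodes the GM2 activator, which lifts ganglioside GM2 out of the membrane for beta-hexosaminidase. Its values were 11.28 with ethanol, 11.31 with tenofovir, 10.13 with ritonavir, 10.76 with ritonavir and DMSO, 10.99 with c9,t11-CLA and 10.06 with t10,c12-CLA. Every ritonavir array was below both others, with differences from ethanol of -1.15 and -0.52 for the arrays without CLA. Hexa, whose product acts together with the GM2 activator, was higher on the same arrays. Another detected Gm2a probe set differed by -0.67 with ritonavir and a further one, near the detection level with ethanol at 6.85, by 0.76. Smpd1, the acid sphingomyelinase, differed by -0.68 with ritonavir and by 0.01 with DMSO added, and Ppt2 by -0.53 and -0.08.

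**Figure D2:**
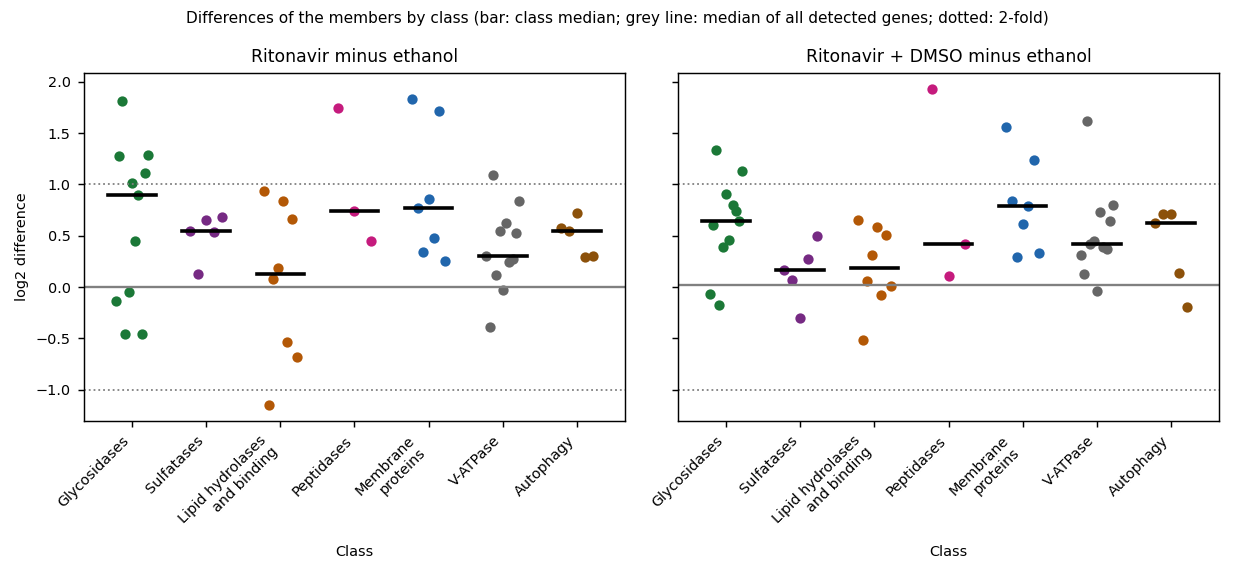
Log2 differences of the detected members by class, for ritonavir against ethanol and for ritonavir with DMSO against ethanol (points: genes; bars: class medians; grey line: median of all detected genes; dotted lines: 2-fold). With ritonavir the medians run from 0.13 for the lipid genes to 0.90 for the glycosidases.

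The 3 peptidases had medians of 0.74 and 0.42. Dpp7, a serine dipeptidyl peptidase, read 9.31 with ethanol, 9.39 with tenofovir, 11.05 with ritonavir, 11.24 with ritonavir and DMSO, 11.23 with c9,t11-CLA and 11.44 with t10,c12-CLA. The groups were far apart, with differences of 1.74 (3.35-fold) and 1.93 (3.81-fold), the highest of any member with DMSO added. Tpp1, a tripeptidyl peptidase deficient in a late-infantile storage disease, read 12.55, 12.52, 13.00, 12.98, 13.11 and 13.14, with differences of 0.45 and 0.42. Lgmn, the asparaginyl endopeptidase that processes cathepsins, differed by 0.74 with ritonavir and 0.11 with DMSO added.

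All 7 detected membrane proteins were above both other arrays on all 4 ritonavir arrays by the probe set used, as were 28.6% of detected genes. The medians were 0.77 and 0.79, and 2 of the 7 were at least 2-fold higher in each comparison, against 4.56% and 1.52% of detected genes. Cd68 encodes a heavily glycosylated late-endosomal protein that is widely used as a macrophage marker. It read 6.87 with ethanol, 6.75 with tenofovir, 8.71 with ritonavir, 8.43 with ritonavir and DMSO, 8.11 with c9,t11-CLA and 10.10 with t10,c12-CLA. The difference from ethanol was 1.83 (3.56-fold) with ritonavir and 1.56 with DMSO added, from values close to the detection level without ritonavir. Npc1, which exports cholesterol from the lysosome, read 8.45, 8.41, 10.16, 9.69, 9.35 and 9.64. Its differences were 1.71 (3.28-fold) and 1.24.

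Macrophage markers other than Cd68 were partly above the detection level. Of 16 macrophage genes, 6 or 7 were at or above the detection level on each array, and their mean lay between 5.94 and 6.04 on all 6. Adgre1, Itgam, Ptprc, Mrc1, Mpeg1, C1qa, C1qb, Marco and Tyrobp were under the detection level on every array. Lyz2 (6.36 to 6.76) was above it on some arrays only. Csf1r (7.43 to 7.66), Laptm5 (7.11 to 7.69), Msr1 (6.94 to 7.23), Fcgr1 (6.86 to 7.11) and Fcer1g (6.71 to 6.91) were above the detection level on every array. Cd14, a lipopolysaccharide co-receptor, was at 7.90 with ethanol, 8.21 with ritonavir, 8.81 with ritonavir and DMSO and 9.24 with t10,c12-CLA. The part of macrophage-like cells in the Cd68 values was not tested. Scarb2, the receptor that carries beta-glucocerebrosidase to lysosomes, had the lowest difference of the class and read 11.23, 11.35, 11.48, 11.56, 11.57 and 11.94. A further Scarb2 probe set differed by -1.0002 with ritonavir, where the one used differed by 0.25. Lamp2, a receptor of chaperone-mediated autophagy, differed by 0.86, Ctns, the cystine exporter, by 0.77, the calcium channel Mcoln1 by 0.48 and Lamp1 by 0.34.

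The V-ATPase subunits had medians of 0.30 with ritonavir and 0.41 with DMSO added. In each comparison 1 of 11 was at least 2-fold higher, against 4.56% and 1.52% of detected genes. Atp6v0b, a proteolipid of the membrane ring, read 11.38 with ethanol, 11.71 with tenofovir, 12.47 with ritonavir, 13.00 with ritonavir and DMSO, 12.93 with c9,t11-CLA and 13.08 with t10,c12-CLA. Its differences were 1.09 and 1.62, and its tenofovir difference, 0.33, was the largest of any member. This probe set has the suffix of probes that may bind other transcripts, and its other detected probe sets differed by 0.81 and 0.59 with ritonavir. Atp6v0a2, a membrane subunit of the proton path, had the lowest value at 9.71, 9.66, 9.32, 9.84, 9.89 and 9.87, below ethanol with ritonavir (-0.39) and above it on the other ritonavir arrays.

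In the catalytic V1 sector the median was 0.52 with ritonavir and 0.45 with DMSO added. The stator subunit Atp6v1g1 differed by 0.84 and 0.80, the regulatory subunit Atp6v1c1 by 0.62 and 0.74 and the catalytic subunit Atp6v1a by 0.54 and 0.45. Atp6v1b2, which pairs with Atp6v1a in the catalytic ring, differed by -0.03 and -0.04. In the membrane V0 sector, Atp6v0a1 differed by 0.30 and 0.32 and Atp6v0e by 0.12 and 0.41. For 9 of the 11 subunits all ritonavir arrays were above both others, as for 28.6% of detected genes. Atp6v0e counts by a narrow margin, at 12.506 with ritonavir and 12.502 with tenofovir. Another detected Atp6v0a1 probe set was lower on all 4 ritonavir arrays (7.14 to 7.35) than with ethanol (8.01) and tenofovir (8.17).

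Among the autophagy genes the medians were 0.55 and 0.62, and 0 of 5 passed 2-fold. Of detected genes, 4.56% and 1.52% passed it upward and 6.39% and 2.99% downward. Sqstm1, the p62 cargo receptor, was the highest, at 12.32 with ethanol, 12.26 with tenofovir, 13.04 with ritonavir, 13.03 with ritonavir and DMSO, 13.12 with c9,t11-CLA and 13.51 with t10,c12-CLA, with differences of 0.72 and 0.71. The LC3 family members Gabarapl1 and Map1lc3b differed by 0.58 and 0.55 with ritonavir and by 0.62 and 0.71 with DMSO added. Uvrag, a subunit of a phosphatidylinositol kinase complex, was the lowest, at 9.72, 9.84, 10.01, 9.86, 9.79 and 10.08, and its groups overlapped. Wipi1, which binds the phosphoinositide made there, differed by 0.30 and -0.19. Its other detected probe sets differed by -0.01 to 0.95 with ritonavir and by -0.35 to 0.12 with DMSO added.

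**Figure D3:**
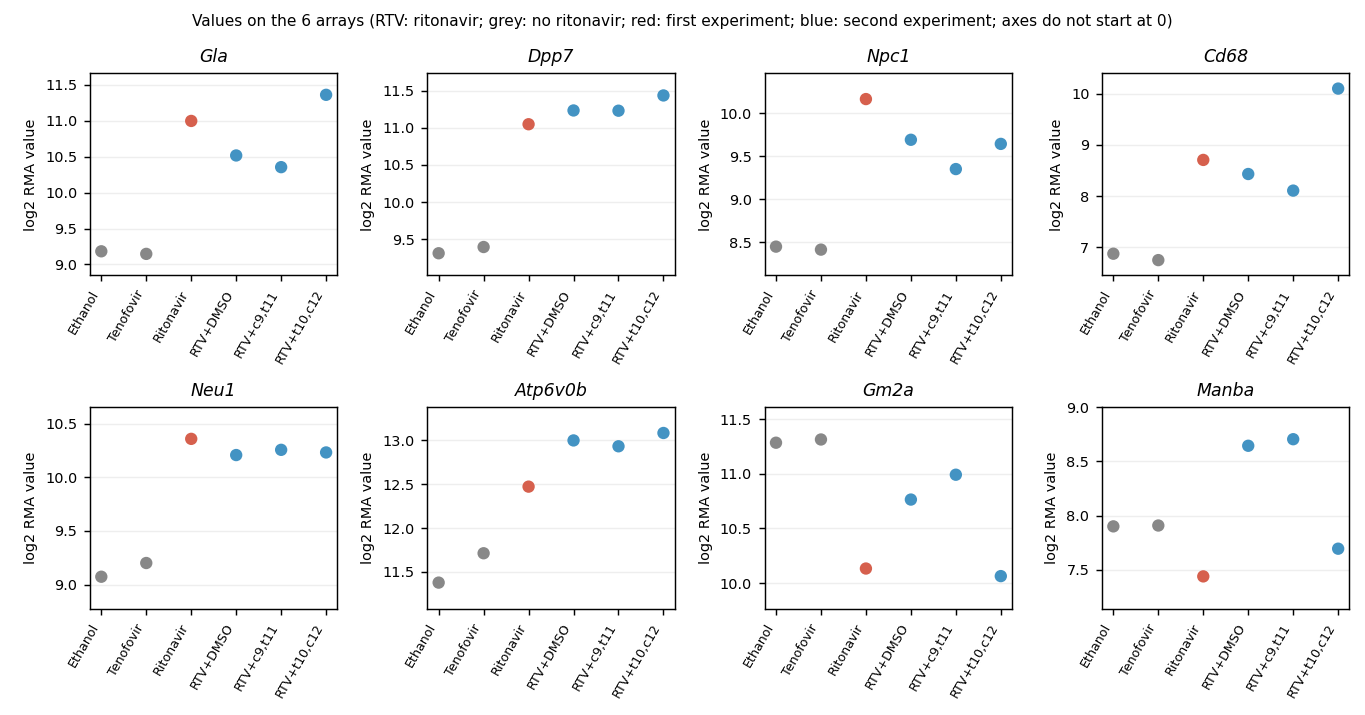
Log2 values of 8 members on the 6 arrays (grey: no ritonavir; red: ritonavir in the first experiment; blue: ritonavir in the second; vertical axes do not start at 0). Gla, Dpp7, Npc1, Cd68, Neu1 and Atp6v0b are higher on all 4 ritonavir arrays, Gm2a is lower on all 4, and Manba is lowest on the ritonavir and t10,c12-CLA arrays.

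Tenofovir left the members close to ethanol. Differences ran from -0.24 to 0.33 with a median of 0.00, and 0 members passed 2-fold in either direction, as did 0.0% of detected genes. For 48 of the 50 members the ritonavir difference was larger in size than the tenofovir difference, as it was for 82.0% of detected genes. The exceptions among the members were Lipa and Atp6v1b2. These comparisons also share the ethanol array.

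The CLA isomers were given at the same dose and time with ritonavir, and each was read against the DMSO array. With c9,t11-CLA the members differed by -0.34 to 0.30, with a median of 0.03, and 0 passed 2-fold higher (0.0% of detected genes) or lower (0.00807%). With t10,c12-CLA the median was 0.08. Cd68 was the 1 member at least 2-fold higher, by 1.67 (3.18-fold), where 0.783% of detected genes were, and 0 were at least 2-fold lower, against 1.05%. Next to it were Gla at 0.84, Lgmn at 0.67 and Sqstm1 at 0.48, and at the other end Manba at -0.95, Gm2a at -0.70 and Smpd1 at -0.54. At 1.5-fold, 3 members were higher and 2 lower, against 3.11% and 3.96%. Scarb2 differed by 0.38 and Lipa by 0.36.

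Compared directly, t10,c12-CLA against c9,t11-CLA had 2 members at least 2-fold higher, Cd68 (1.99, or 3.98-fold) and Gla (1.01), and 1 lower, Manba (-1.01). The shares over detected genes were 0.953% higher and 1.53% lower. Gm2a was just short of 2-fold at -0.93, and 3 members were at least 1.5-fold lower, against 4.96%. The other detected Gla probe set differed by 0.47 between the isomers, so the 2-fold difference of Gla rests on 1 probe set. With 1 array per isomer no interval can be given, and the remaining members, which differed by less than 2-fold, are not shown to respond alike.

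**Figure D4:**
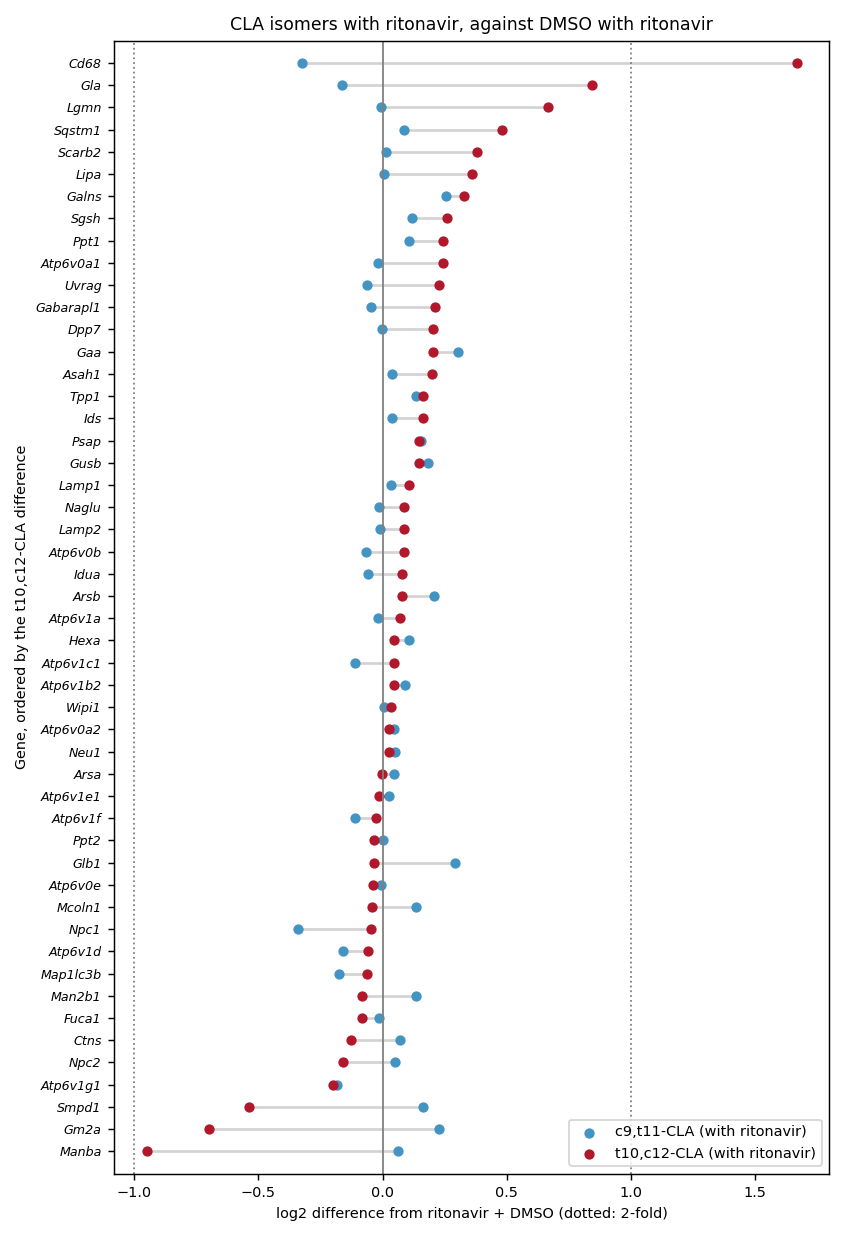
Log2 difference of each detected member from the ritonavir with DMSO array, with c9,t11-CLA (blue) and with t10,c12-CLA (red), ordered by the t10,c12-CLA difference (dotted lines: 2-fold). Cd68 stands apart at 1.67 with t10,c12-CLA against -0.32 with c9,t11-CLA, and Manba lies lowest at -0.95.

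Adipocyte and fibroblast markers also differed between these arrays. The mean of 10 adipocyte markers was 12.93 with ethanol, 12.95 with tenofovir, 9.44 with ritonavir, 12.01 with ritonavir and DMSO, 12.15 with c9,t11-CLA and 10.78 with t10,c12-CLA. The mean of 12 preadipocyte and fibroblast markers, with Cd34 under the detection level on every array, was 11.34, 11.34, 12.27, 10.99, 11.09 and 11.42. These markers did not differ alike. Of the 11 detected, 4 were at least 2-fold higher with ritonavir (against 4.56% of detected genes), up to 3.77 for Tagln. Dlk1 and Pdgfra differed by -0.11 and -0.07. The next counts set the ritonavir and t10,c12-CLA arrays apart from the other 4. That grouping was read from these same data, so the counts describe it and test nothing. All 10 adipocyte markers were below the other 4 on both arrays. Of the members, 6 were (Glb1, Manba, Fuca1, Smpd1, Gm2a and Ppt2), a share below the 18.9% of detected genes. Both arrays were above the other 4 for 13 members, against 20.7%. The members' median difference from ethanol was 0.54 on the ritonavir array and 0.45 on the ritonavir with DMSO array. In pooled RNA of a whole culture, fewer cells of a type and less RNA per cell cannot be told apart, and the part of cell composition in these differences was not tested. The mean of 6 melanocyte genes lay between 5.88 and 6.61, but 1 of them, Mlana, which encodes a melanosome protein, read 5.64 with ethanol, 5.40 with tenofovir, 9.93 with ritonavir, 10.07 with ritonavir and DMSO, 9.83 with c9,t11-CLA and 9.22 with t10,c12-CLA. Its differences from ethanol, 4.29 with ritonavir and 4.43 with DMSO added, were the highest of all detected genes in both comparisons. Mlana was under the detection level on both arrays without ritonavir and counts as detected only through the ritonavir arrays. The size of its differences is therefore not firm. The other detected melanocyte genes, Pmel and Slc45a2, differed by -0.22 and 0.07 with ritonavir.

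Other genes of the pathway were read from lists of 89 further detected genes. With ritonavir 4 of them passed 2-fold upward (4.49%, against 4.56% of detected genes) and 3 downward (3.37%, against 6.39%). The upward share at 2-fold was thus close to that of all genes. At 1.5-fold, 18 of the 89 were higher and 6 lower, against 12.4% of detected genes each way. Above 0 were 59 of the 89, against 50.2%. With DMSO added 2 passed upward (2.25%, against 1.52%) and 1 downward (1.12%, against 2.99%). At 1.5-fold, 16 of the 89 were then higher, against 6.45% of detected genes, and 3 were lower. The medians were 0.27 and 0.29, against 0.00 and 0.02 over all detected genes. Those upward with ritonavir were Clcn7 (1.14), the lysosomal chloride-proton exchanger, Gnptg (1.04), a subunit of the enzyme that tags hydrolases with mannose 6-phosphate, and the mTORC1 regulators Fnip2 (1.19) and Flcn (1.07). Those downward were the sorting receptor Sort1 (-2.11), the lipid amidase Naaa (-1.52) and the acid phosphatase Acp5 (-1.50). With DMSO added Sort1 differed by -0.23 and Naaa by -0.46, and Acp5 was above the detection level on the ethanol array alone (6.65), so the size of its difference is not firm. Of the factors themselves, Tfeb differed by -0.90, Tfe3 by 0.01 and Mitf by 0.68. The V-ATPase subunit Tcirg1, outside the 52, differed by 0.98, and the HOPS subunits Vps18, Vps16 and Vps11 by 0.78, 0.73 and 0.65.

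Members with TCACGTG in their window had a median ritonavir difference of 0.68 (13 detected), and those with a window but no match had 0.38 (30 detected). Over all detected genes with a window, these medians were 0.11 and 0.00. For the longer TCACGTGA the members' medians were 0.54 (5 detected) and 0.49 (38 detected), so the gap was small there. Of 8 members at least 2-fold higher that have a window, 5 hold TCACGTG, beside 31.1% of all members with a window and 6.83% of detected genes. Cd68, the highest of all, holds none in the window printed above, and Neu1 (1.29) and Hexa (1.01) hold none in theirs. Among members that hold TCACGTG, Glb1 differed by -0.46, Atp6v0e by 0.12 and Lamp1 by 0.34.

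Probe sets of the same gene mostly differed in the same direction. In 34 members a further 57 probe sets were detected. Of these, 46 had the same sign as the one used for ritonavir against ethanol and 11 the opposite sign, 3 of them at 1.5-fold or more, in Gm2a, Scarb2 and Atp6v0a1 (0.76, -1.0002 and -0.86). The other 16 members rest on 1 detected probe set, among them Cd68, Npc1, Naglu, Hexa and Manba.

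**Figure D5:**
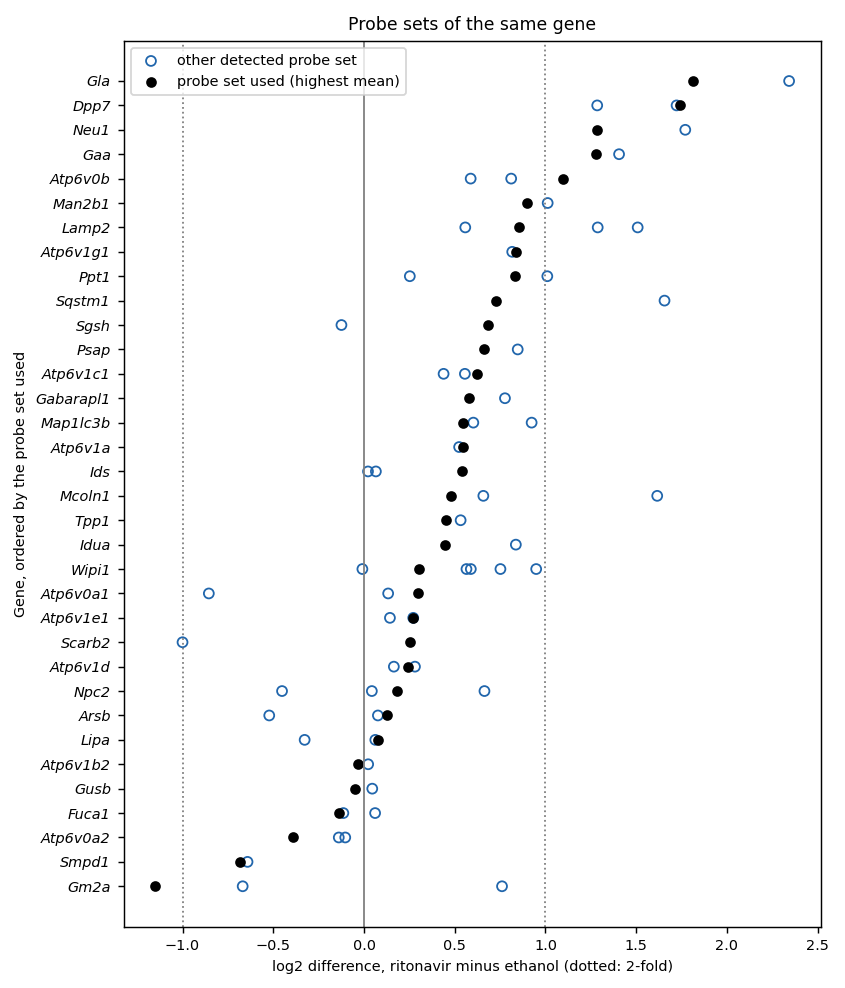
Log2 difference of ritonavir minus ethanol for the probe set used (filled) and the other detected probe sets (open) of each gene with more than 1, ordered by the probe set used (dotted lines: 2-fold). Most open points lie on the same side of 0 as the filled one, and Scarb2 at -1.0002 lies farthest on the opposite side.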

How the data were processed

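Expression was measured on 6 Affymetrix arrays of 45101 probe sets, 1 per group. The authors deposited log2 values made by RMA in Affymetrix Expression Console, per the submitters' processing notes. The version of RMA is not stated there. RMA sets the arrays to a common distribution, and their medians lay between 6.54 and 6.56, so a difference is relative to the other genes. Gene names came from the platform annotation given for the arrays, in which 34958 probe sets have 1 gene, 932 several and 9211 are unnamed here. With 1 array per group there was no test and no error. Differences of log2 values were computed in Python 3.11.15 with pandas 2.3.3 and numpy 2.4.6, and the counting was tested on simulated data. Values on every array are printed for members at least 2-fold apart in any of 7 comparisons and for the highest and lowest of each class for ritonavir against ethanol; the others are given by range, count or difference. The members, the further pathway genes and the marker lists were chosen with earlier results of these data known. Alternatives covered the probe set, the detection level, the normalization, the fold threshold and the arrays compared. Promoter windows are those of RefSeq.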

Additional observations from a re-analysis of the deposited data

Results flagged for a closer look

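Values outside those used above came from probe sets that were not chosen for their gene. For ritonavir against ethanol, a further Gm2a probe set differed by 0.76, against -1.15 for the one used. Further Lamp2 probe sets differed by 1.29 and 1.51, at least 2-fold, where the one used differed by 0.86. A further probe set was at least 2-fold higher and the one used was not for Man2b1 (1.01 against 0.90), Mcoln1 (1.62 against 0.48), Ppt1 (1.01 against 0.83) and Sqstm1 (1.66 against 0.72).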

How the results depend on the processing

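No paired analysis was possible because each group has 1 array. Over 11 alternatives no difference counted as 2-fold changed sign. With probe sets averaged per gene, 0 members were at least 2-fold lower with ritonavir against ethanol, and 1 was higher with t10,c12-CLA against c9,t11-CLA. With the 75th percentile as detection level, 0 were higher with ritonavir and DMSO against ritonavir and 0 lower between the isomers, since Manba was under that level. After quantile normalization again, 0 were lower between the isomers, and after lowess with a span of 0.3, 1 was higher and 0 lower. At 1.5-fold, 21 were higher and 2 lower with ritonavir, 22 higher with DMSO added, 3 higher and 3 lower with ritonavir and DMSO against ritonavir, 3 higher and 2 lower with t10,c12-CLA against DMSO, and 3 lower between the isomers. At 3-fold, these were 4 higher and 0 lower with ritonavir, 2 higher with DMSO added, 0 higher with ritonavir and DMSO against ritonavir, and 1 higher and 0 lower between the isomers. With the mean of both ritonavir arrays, 0 were lower against ethanol. The cause of these changes was not tested beyond what each alternative removes. The other 159 recomputed counts and medians over all members stayed within 1.5 times or within the tolerance of 0.113, the robust spread of the tenofovir difference. Of the recomputed class medians, 336 stayed within it and 21 did not. Hexa lost its 2-fold difference under lowess, and Hexa, Gaa, Naglu and Gm2a lost it with the mean of both ritonavir arrays. Atp6v0b and Gm2a lost it with probe sets averaged, and Atp6v0b also with the mean of ethanol and tenofovir. With DMSO added, Neu1 lost it with probe sets averaged and Dpp7 with only probe sets named without an a, s or x suffix; Hexa, Gaa and Atp6v0b then had no value. Of the single differences of members, 2321 stayed within the tolerance and 159 did not. Values near 6.55 are least reliable.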
